A study of Homo sapiens with 19 samples.

Results

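Genes of the endoplasmic reticulum (ER) protein folding machinery and of the unfolded protein response were followed by RNA sequencing in HepaRG cells, a human hepatic line that differentiates into a mix of hepatocyte-like and biliary-like cells. The members are 35 genes listed by function, out of 78894 genes in the deposited table, and no measured value entered the rule. They comprise 9 genes for HSP70, HSP90 and their co-chaperones, 2 for lectin chaperones, 8 for disulfide formation, 8 for ER-associated degradation, 2 for the translocon, and 6 for stress sensors and transcription factors. In every group the cells were HepaRG, differentiated before treatment. Batch 1 held 3 libraries transfected with a negative control siRNA (siNC), 3 with an siRNA against ADAR (siADAR) and 3 with an siRNA against ADARB1 (siADARB1), each siRNA at 20 nM. Batch 2 held 3 siNC libraries, 2 of cells given interferon alpha (IFNa) at 1000 U/mL, 3 of cells given BX795 at 1 µM, and 2 of cells given both BX795 and the ADAR siRNA. Both agents were added at the time of transfection and were renewed when medium was changed at 24 h and 48 h. The labels do not say whether cells given IFNa or BX795 alone also received a control siRNA, nor is it stated if the replicates came from separate cultures, so p-values measure only the spread between these libraries. A single siRNA was used per target.

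ADAR and ADARB1 are the adenosine deaminases that edit double-stranded RNA. BX795 is a kinase inhibitor used to block TBK1 and IKK epsilon, which act upstream of interferon induction. Secretory and membrane proteins enter the ER through the SEC61 channel, are folded by chaperones and by enzymes that form disulfide bonds, and, when they fail to fold, are pulled back to the cytosol for degradation. When unfolded proteins accumulate, the sensors ERN1 (IRE1), ATF6 and PERK raise transcription of chaperone and degradation genes, ERN1 through splicing of XBP1 mRNA and ATF6 after cleavage in the Golgi. Hepatocytes secrete most plasma proteins and rely heavily on this machinery, and the liver-rich factor CREB3L3 is cleaved in the same way as ATF6.

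The promoters of many of these genes carry short elements through which ATF6 and XBP1 act, and these are shown because the members that hold them are compared below. RefSeq promoter windows (GRCh38.p14, from 250 bases before to 50 bases after each start site) were found for 32 of the 35 members, and both strands were searched. The ER stress element ERSE, searched as CCAAT and CCACG parted by 9 bases of any kind, was present for 8 of 32 members (25%) and for 25 of 27305 genes in the table (0.0916%). ERSE-II, searched as ATTGG and CCACG parted by 1 base, was present for 3 members (9.38%) and for 19 genes (0.0696%). The XBP1-type element UPRE, TGACGTGG, was found for 2 members (6.25%) and 253 genes (0.927%), and the amino acid response element AARE, TGATGCAA, for 1 member (3.12%) and 295 genes (1.08%). Stretches around the matches are printed on the strand of the gene, 5′ to 3′, with the matched letters in capitals.
HSPA5: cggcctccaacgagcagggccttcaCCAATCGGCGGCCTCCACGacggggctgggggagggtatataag
HSP90B1: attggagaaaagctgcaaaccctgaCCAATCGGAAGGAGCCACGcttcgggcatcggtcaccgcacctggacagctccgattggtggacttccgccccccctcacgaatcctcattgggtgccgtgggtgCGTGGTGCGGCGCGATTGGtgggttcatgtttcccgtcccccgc
CALR: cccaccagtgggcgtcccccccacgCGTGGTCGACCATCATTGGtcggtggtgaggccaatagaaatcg
CRELD2: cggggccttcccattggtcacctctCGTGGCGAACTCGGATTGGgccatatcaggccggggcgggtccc
XBP1: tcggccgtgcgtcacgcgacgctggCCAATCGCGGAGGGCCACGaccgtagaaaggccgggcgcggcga
HYOU1: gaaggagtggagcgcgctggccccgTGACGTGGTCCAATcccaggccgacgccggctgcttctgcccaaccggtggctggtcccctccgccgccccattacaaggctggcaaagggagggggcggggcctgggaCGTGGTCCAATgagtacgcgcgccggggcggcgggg
SDF2L1: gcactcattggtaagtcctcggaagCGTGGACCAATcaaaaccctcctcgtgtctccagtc
HERPUD1: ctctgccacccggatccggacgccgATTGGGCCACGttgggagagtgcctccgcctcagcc

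The HSPA5 stretch lies on the minus strand at chr9:125241366-125241434, bases -91 to -23 from the start site, and holds 1 ERSE. The HSP90B1 stretch is on the plus strand at chr12:103930191-103930364 and holds 2, one in each orientation. CALR (plus strand, chr19:12938359-12938427), CRELD2 (plus strand, chr22:49918529-49918597) and XBP1 (minus strand, chr22:28800578-28800646) each hold 1 ERSE, in reverse orientation for CALR and CRELD2. The HYOU1 stretch (minus strand, chr11:119057249-119057418) holds 2 reversed ERSE-II matches, and the first of these overlaps a UPRE. SDF2L1 (plus strand, chr22:21642089-21642149) and HERPUD1 (plus strand, chr16:56932000-56932060) hold 1 ERSE-II each. ERO1B, PDIA6 and CANX also held ERSE, which brings the members with either form to 11 of 32 (34.4%) against 44 of all genes (0.161%). No match was found for PDIA4. A match is a description of letters in these windows, and binding was not measured.

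Libraries held about 42652000 to 77104000 counts in batch 1 and about 13081000 to 34720000 in batch 2. ADAR stood at 239, 239 and 241 CPM (counts scaled to a common library size, with library sizes adjusted by TMM) with siNC and at 57.7, 56 and 65.1 with siADAR, and ADARB1 fell by 1.59 ± 0.06 (log2, SE) with siADARB1. The combined treatment lowered ADAR by 2.32 ± 0.12 on the log2 scale relative to BX795 alone. ADARB1 was also lower with siADAR, at 26.6, 23.2 and 24.9 CPM against 30.8, 28.7 and 30.2 with siNC. ADAR was higher with IFNa, at 839 and 742 CPM against 266, 259 and 215 with siNC of batch 2. All 11 hepatocyte markers were detected in every group. EPCAM, a biliary marker, was at 0 in 6 of the 7 groups. The summed hepatocyte markers ranged from 59313 to 63935 CPM in batch 1 controls, 44124 to 46959 with siADAR and 51630 to 54504 with siADARB1. In batch 2 the same sum ranged from 12636 to 15068 CPM in controls and from 15530 to 16689 with BX795. With siADAR 2 of the 11 rose and 7 fell, with siADARB1 8 fell, and with BX795 5 rose and 3 fell. Summed biliary markers ranged from 328 to 364 CPM in batch 1 controls and from 781 to 811 CPM with siADAR (5 of 6 tested rose), and from 213 to 300 CPM in batch 2 controls and 118 to 136 with BX795 (2 of 5 tested rose and 3 fell). The 6 cycling markers summed to 191 to 210 CPM in batch 1 controls, 234 to 267 with siADAR (4 rose) and 133 to 148 with siADARB1 (all 6 fell). In batch 2 the cycling sum was 99.9 to 132 CPM in controls, 59.3 to 74.9 with BX795 and 23.4 to 27.3 with the combined treatment, and all 6 fell with each. The 10 interferon response genes summed to 83.4 to 86.2 CPM in batch 1 controls and 463 to 721 with siADAR, and to 97 to 124 CPM in batch 2 controls and 3392 to 3446 with IFNa. The shares of all tested genes called higher and lower were 20.2% and 17.6% with siADAR and 8.25% and 8.45% with siADARB1. With BX795 they were 20.2% and 21.9%, and with the combined treatment against siNC 16.9% and 16%. In these bulk samples a smaller number of cells of a type cannot be told apart from less RNA per cell, and the part of cell composition in the results was not tested.

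Base composition also differed between batch 2 groups. The log2 level of genes above 60% GC relative to genes below 40% GC, each gene centred on its mean over the batch, was 0.27, 1.05 and 0.84 in the siNC libraries, -0.39 and 0.08 with IFNa, -0.2, -0.63 and -0.5 with BX795, and 0.01 and -0.52 with BX795 and siADAR. In batch 1 it stayed between -0.08 and 0.14. Whether the trend in batch 2 is technical or part of the responses was not tested. After correction for GC content, 9.25% of all tested genes were called higher and 9.6% lower with IFNa, 14.3% and 16.1% with BX795, 13.5% and 14.8% with the combined treatment against siNC, and 3.82% and 5.09% with it against BX795. Among the 34 tested members, 2 were then called higher and 10 lower with IFNa, and 4 and 23 with BX795. The combined treatment gave 6 and 19 against siNC, and 6 and 1 against BX795.

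In control cells the members spanned a wide range of levels. Per kilobase of the longest transcript, the batch 1 controls held 409 CPM of CALR, 327 of P4HB, 237 of HSP90B1, 170 of CANX and 157 of HSPA5. The transcription factor XBP1 was at 131 CPM per kilobase, while the sensors ATF6 and ERN1 were at 8.65 and 3.56. CREB3L3 reached 10.2 CPM per kilobase, CREB3L2 14.9 and CREB3L1 0.452. On this scale the 9 HSP70, HSP90 and co-chaperone genes, from 12 CPM per kilobase for DNAJB11 upwards, stood above ATF6 and ERN1. DERL3, one of the derlin channel proteins of degradation, had 0 counts in all 9 batch 1 libraries and 0 to 3 counts in batch 2, at or under the floor of 3 counts, and was not tested. The other 34 members passed the filter on low counts in both batches.

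**Figure D1:**
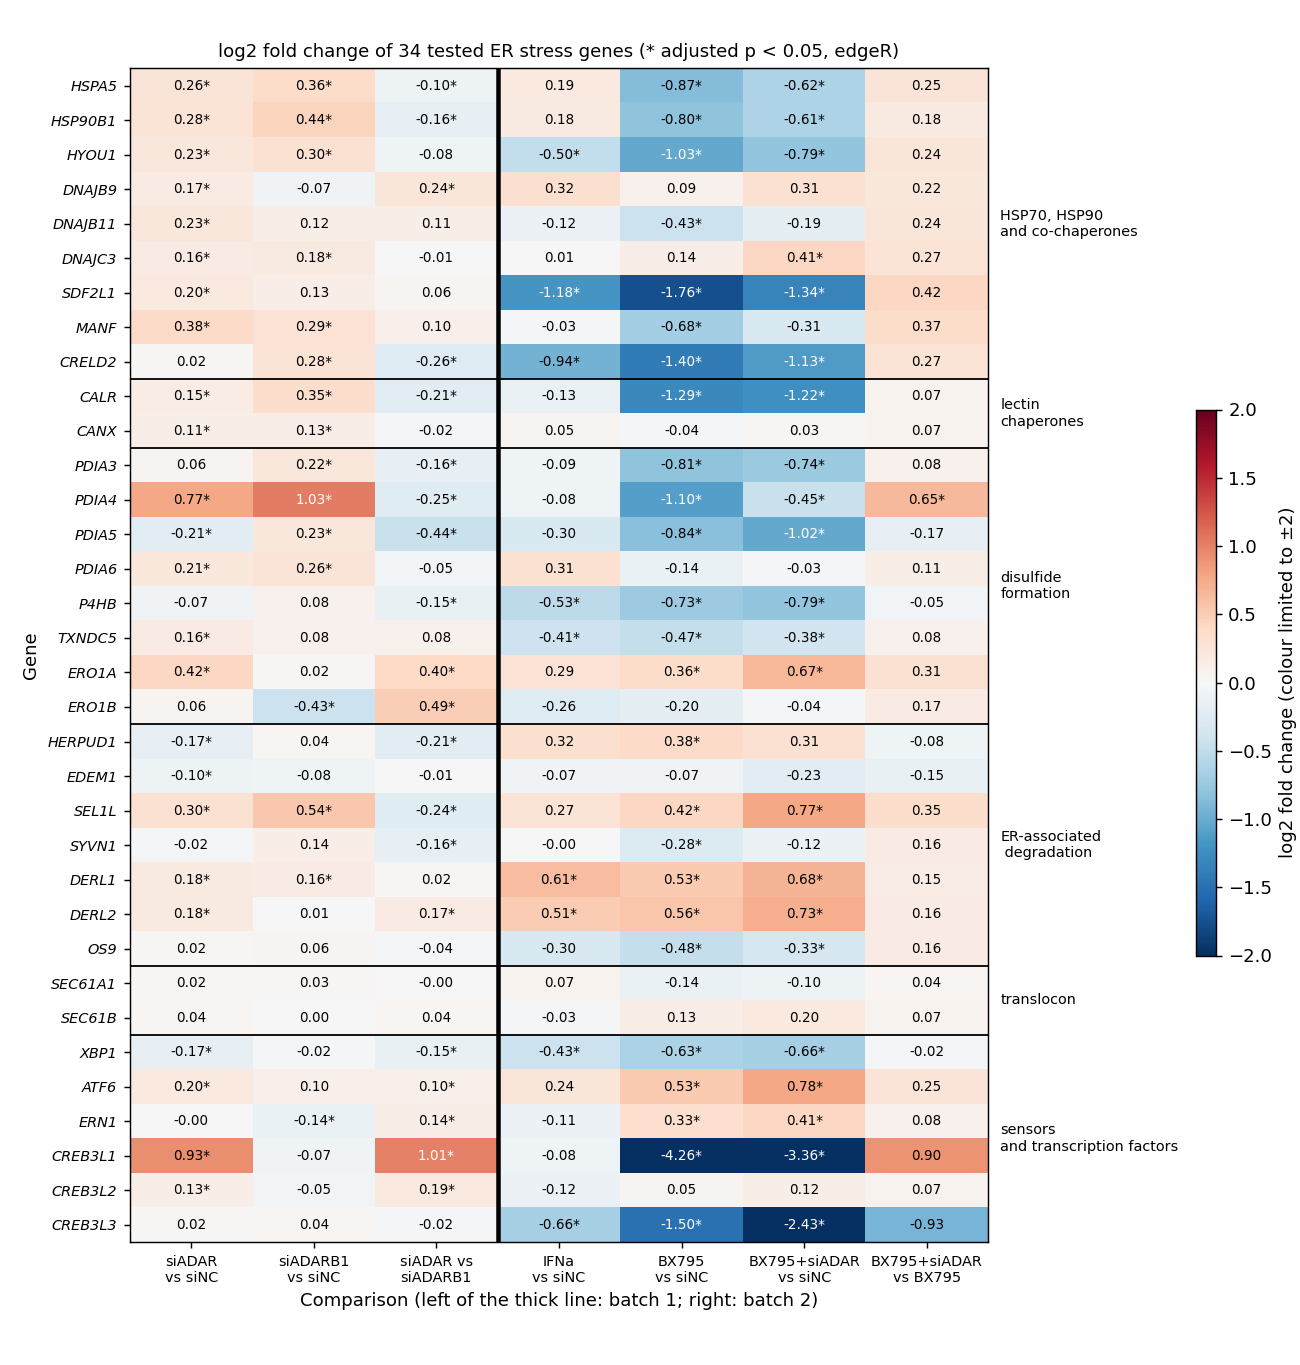
Heat map of log2 fold changes for the 34 tested members (rows, by role) in 7 comparisons (columns); asterisks mark edgeR adjusted p below 0.05, and colour is limited to ±2. PDIA4 is called higher in both knockdowns of batch 1, and most luminal chaperones are called lower with BX795.

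Knockdown of either editing enzyme was accompanied by higher mRNA of ER chaperones. With siADAR 20 of 34 members rose and 4 fell, and their median log2 change was 0.15 against -0.01 over all genes, where 20.2% of all tested genes were called higher and 17.6% lower. With siADARB1 14 rose and 2 fell, with a median of 0.11 against 0 over all genes, where 8.25% were called higher and 8.45% lower. In 1 fit of all 19 libraries, 9 rose and 1 fell with siADAR, beside 2539 higher and 2503 lower of all 23121 genes tested there. With siADARB1 7 rose and 1 fell in that fit, beside 485 higher and 581 lower of the same 23121. The biological coefficient of variation was 6.68% in batch 1 alone and 14.2% in batch 2 alone. Most changes were small, and PDIA4 had the smallest p of the members in both. These comparisons share the 3 siNC libraries, so their values are given side by side and their likeness is not counted as a result.

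PDIA4 (ENSG00000155660.11, chr7:149003051-149028505) encodes a disulfide isomerase of the ER lumen. It measured 242, 254 and 249 CPM with siNC, 417, 433 and 424 with siADAR, and 511, 514 and 495 with siADARB1. The 3 groups did not overlap, and the order was siNC, siADAR, siADARB1. The log2 change was 0.77 ± 0.04 with siADAR (1.71-fold, edgeR adjusted p = 1.03e-09) and 1.03 ± 0.04 with siADARB1 (2.04-fold, edgeR adjusted p = 3.03e-10).

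Among the HSP70, HSP90 and co-chaperone genes 8 of 9 members rose with siADAR and 6 of 9 with siADARB1. HSPA5 (BiP), the ER HSP70 that holds unfolded chains, measured 605, 618 and 618 CPM with siNC, 725, 757 and 725 with siADAR, and 781, 791 and 786 with siADARB1. Each knockdown library lay above each control. The log2 change was 0.26 ± 0.03 with siADAR (edgeR adjusted p = 1.53e-05) and 0.36 ± 0.03 with siADARB1 (edgeR adjusted p = 4.08e-06). HSP90B1 (GRP94), the ER HSP90, was at 713, 681 and 761 CPM with siNC, 862, 886 and 863 with siADAR, and 928, 1042 and 949 with siADARB1. Here too the groups did not overlap, with log2 changes of 0.28 ± 0.05 and 0.44 ± 0.05.

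MANF, a small secreted protein that binds HSPA5, measured 45.9, 46.1 and 51.6 CPM with siNC against 61.6, 63.4 and 62.7 with siADAR, all of the latter above the former. Its log2 change was 0.38 ± 0.05 with siADAR and 0.29 ± 0.05 with siADARB1. HYOU1, which exchanges nucleotide on HSPA5, rose by 0.23 ± 0.03 and 0.30 ± 0.03. The J-domain co-chaperones that hand clients to HSPA5 were uneven. DNAJC3 rose in both (0.16 and 0.18), whereas DNAJB9 and DNAJB11 rose with siADAR (0.17 and 0.23) and were not called with siADARB1 (-0.07 and 0.12). SDF2L1, a partner of DNAJB11, rose by 0.20 ± 0.06 with siADAR, but the edgeR adjusted p was 0.0767 without control replicate 3 and 0.0899 without siADAR replicate 3. CRELD2, an ER stress-induced luminal protein, was not called with siADAR (0.02) and rose by 0.28 ± 0.06 with siADARB1.

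The lectin chaperones hold newly made glycoproteins. CALR rose by 0.15 ± 0.04 with siADAR and 0.35 ± 0.04 with siADARB1. CANX rose by 0.11 ± 0.03 and 0.13 ± 0.03; its call was lost without control replicate 1 in both comparisons (edgeR adjusted p = 0.0625 and 0.0553) and, for siADAR, without siADAR replicate 1 (0.0578).

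In the disulfide group of 8 genes, 4 rose and 1 fell with siADAR, and 4 rose and 1 fell with siADARB1. ERO1A, an oxidase that recharges the isomerases, was at 77.1, 81 and 84.6 CPM with siNC, at 108, 108 and 109 with siADAR, and at 81.3, 85.9 and 78.5 with siADARB1. The siADAR libraries stood above both other groups, with a log2 change of 0.42 ± 0.04 (edgeR adjusted p = 2.27e-06), and the siADARB1 libraries overlapped with the controls (0.02 ± 0.04). Its paralogue ERO1B was at 17.6, 18.3 and 17.4 CPM with siNC and 12.5, 13.1 and 14 with siADARB1, without overlap, a log2 change of -0.43 ± 0.06 (edgeR adjusted p = 0.000144), and was not called with siADAR (0.06 ± 0.06). PDIA5 fell by 0.21 ± 0.04 with siADAR and rose by 0.23 ± 0.04 with siADARB1. PDIA6 rose in both (0.21 and 0.26), PDIA3, which works with the lectin chaperones, rose with siADARB1 (0.22), and TXNDC5 rose with siADAR (0.16). P4HB, the classic protein disulfide isomerase, was called in neither (-0.07 and 0.08).

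Of the 7 tested degradation genes, 3 rose and 2 fell with siADAR, and 2 rose with siADARB1. SEL1L, the adaptor of the HRD1 ubiquitin ligase, measured 192, 200 and 203 CPM with siNC, 251, 237 and 245 with siADAR, and 289, 292 and 283 with siADARB1. The groups were ordered without overlap as for PDIA4, with log2 changes of 0.30 ± 0.04 and 0.54 ± 0.04 (edgeR adjusted p = 1.65e-05 and 3.02e-07). SYVN1, the HRD1 ligase itself, was not called in either (-0.02 and 0.14). HERPUD1, a scaffold of the same complex, fell by 0.17 ± 0.04 with siADAR. DERL1 rose by 0.18 ± 0.05 with siADAR and by 0.16 ± 0.05 with siADARB1, where its groups overlapped and the call was lost without control replicate 1 or 3 or siADARB1 replicate 1 or 3 (edgeR adjusted p = 0.151, 0.0952, 0.0902 and 0.136). With siADAR, DERL2 (0.18) lost its call without control replicate 2 or 3 or siADAR replicate 1 (edgeR adjusted p = 0.0689, 0.07 and 0.132), and EDEM1, a lectin for misfolded glycoproteins (-0.10), without 5 of the 6 compared libraries (all except control replicate 3), with an adjusted p of up to 0.155 without siADAR replicate 2. OS9 was not called (0.02 and 0.06), and neither were the translocon genes SEC61A1 and SEC61B (0 to 0.04).

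Of the 6 sensors and transcription factors, 3 rose and 1 fell with siADAR, and 1 fell with siADARB1. XBP1 was at 283, 291 and 279 CPM with siNC, 245, 253 and 260 with siADAR, and 278, 282 and 282 with siADARB1. The siADAR libraries lay below both other groups, a log2 change of -0.17 ± 0.04 (edgeR adjusted p = 0.00154), and the siADARB1 libraries overlapped with the controls. Gene-level counts do not separate the spliced from the unspliced XBP1 mRNA. CREB3L1, a cleaved membrane factor known from secretory and collagen-producing cells, was low throughout, at 0.94, 1.29 and 1.42 CPM with siNC and 2.44, 2.53 and 2.02 with siADAR (54 to 142 counts per library), without overlap. Its log2 change was 0.93 ± 0.18 with siADAR (1.91-fold, edgeR adjusted p = 0.00083) and -0.07 ± 0.19 with siADARB1. Beside it, the summed level of 8 mesenchymal markers ranged from 171 to 192 CPM with siNC and from 278 to 289 with siADAR. Of these markers 4 rose, and the 1 that fell was the collagen gene COL3A1 (-1.46 ± 0.06). Their part in the result was not tested. ATF6 rose with siADAR by 0.20 ± 0.04 and CREB3L2 by 0.13 ± 0.04, and neither was called with siADARB1. ERN1 was not called with siADAR (0) and fell by 0.14 ± 0.04 with siADARB1, a call lost without any 1 of the siADARB1 libraries or control replicates 1 and 2 (edgeR adjusted p from 0.059 to 0.118). CREB3L3 was called in neither (0.02 and 0.04).

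**Figure D2:**
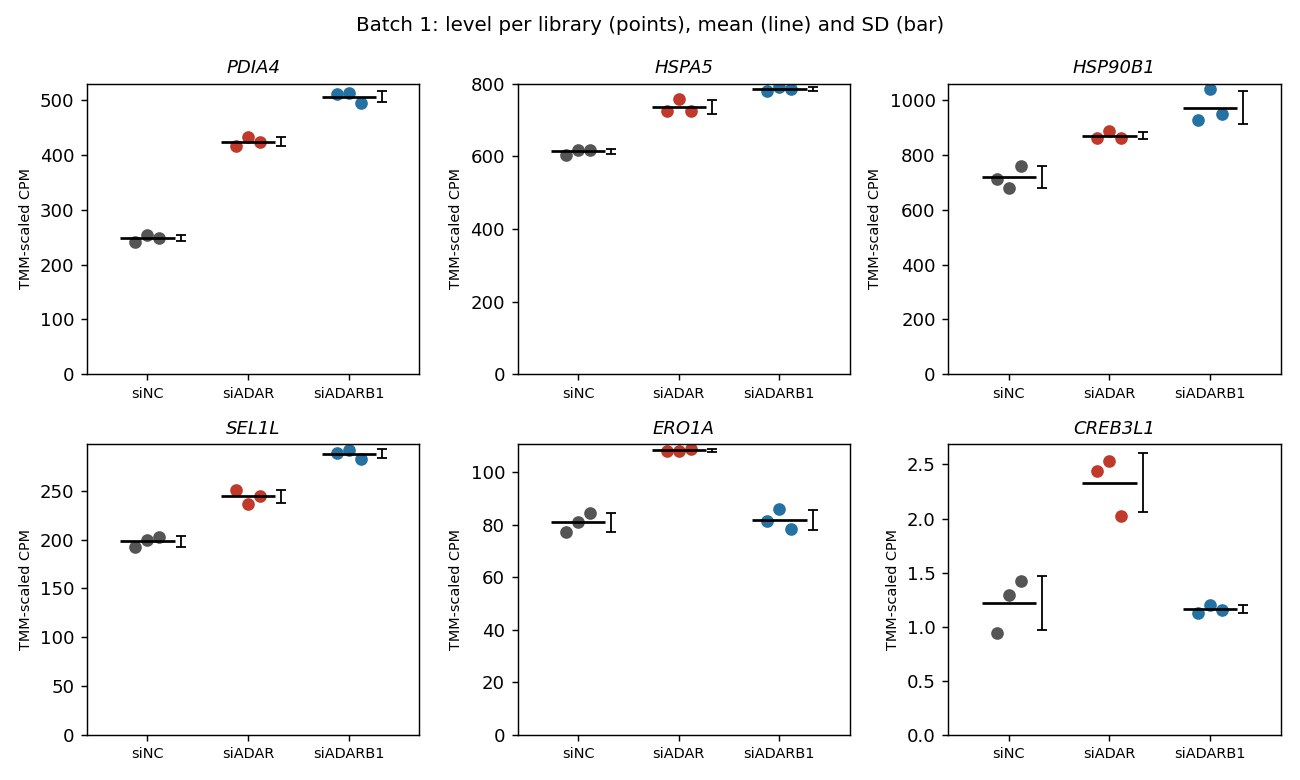
CPM per library (points) with mean (line) and SD (bar) for 6 members in the 3 groups of batch 1, each with 3 libraries. PDIA4, HSPA5, HSP90B1 and SEL1L are ordered siNC, siADAR, siADARB1 without overlap, while ERO1A and CREB3L1 stand apart with siADAR alone.

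The calls of CREB3L1, DNAJB11, ERO1A, HSP90B1, HSPA5, HYOU1, MANF, PDIA4, PDIA5 and SEL1L with siADAR held under each alternative tried, 10 of the 24. With siADARB1 the 8 of 16 that held were CALR, ERO1B, HSP90B1, HSPA5, HYOU1, PDIA3, PDIA4 and SEL1L.

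Set against each other, the knockdowns differed at 20 of 34 members: 8 were higher and 12 lower with siADAR than with siADARB1, where 18.8% of all tested genes were called higher and 16.9% lower. The median log2 difference was -0.02, against -0.01 over all genes. CREB3L1 was at 2.44, 2.53 and 2.02 CPM with siADAR against 1.13, 1.2 and 1.15 with siADARB1, a difference of 1.01 ± 0.18. ERO1B (0.49 ± 0.06) and ERO1A (0.40 ± 0.04) were also higher with siADAR, with 18.1, 17.8 and 19.5 CPM of ERO1B there and the values above with siADARB1. In none of these 3 genes did the groups overlap.

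Lower with siADAR was PDIA5, at 40.7, 42.3 and 41.9 CPM against 55.4, 57.1 and 57.4, a difference of -0.44 ± 0.04. CRELD2, at 31.8, 38.8 and 34.5 CPM against 42, 40.7 and 43.3, differed by -0.26 ± 0.06. In both genes all siADAR libraries lay below all siADARB1 libraries. PDIA4 (-0.25 ± 0.04), SEL1L (-0.24 ± 0.04), CALR (-0.21 ± 0.04) and HERPUD1 (-0.21 ± 0.04) were lower by less. HSPA5 (-0.10 ± 0.03, edgeR adjusted p = 0.0322) and HSP90B1 (-0.16 ± 0.05, 0.0165) were called as well, but HSPA5 lost its call without siADAR replicate 1 or 3 or any siADARB1 library (0.0582 to 0.118), and HSP90B1 without siADAR replicate 1 or 3 or siADARB1 replicate 2 (0.0544, 0.0561 and 0.0771). The calls that held under each alternative were 8 of 20, CREB3L1, CREB3L2, ERO1A, ERO1B, HERPUD1, PDIA3, PDIA4 and PDIA5.

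BX795 was accompanied by lower mRNA of many luminal chaperones. In these cells 18 of 34 members fell and 7 rose relative to siNC of the same batch, and the median log2 change was -0.36 against -0.01 over all genes, where 21.9% of all tested genes were called lower and 20.2% higher. Without a filter on low counts, 58.3% of called genes were higher in place of 48%, and the median of all genes moved by 0.11. Falls were found for 7 of 9 HSP70, HSP90 and co-chaperone genes, 5 of 8 disulfide genes, CALR and XBP1. Of the 7 rises, 6 were in degradation genes and sensors. Without control replicates 2 and 3, which had the highest GC trend, 14 members were called lower and 0 higher by edgeR (4 higher at an unadjusted p below 0.05); this alternative was chosen after seeing the data, and the lone control is assumed to vary like the other groups.

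CREB3L1 (ENSG00000157613.11, chr11:46277662-46321409) fell furthest. It was at 4.22, 6.31 and 5.05 CPM with siNC (62 to 98 counts) and 0.232, 0.364 and 0.198 CPM with BX795 (5 to 10 counts), far from overlapping. The log2 change was -4.26 ± 0.31 (19.17-fold lower, edgeR adjusted p = 1.33e-05) and -3.68 after GC correction. The summed mesenchymal markers were lower too, 370 to 388 CPM with siNC and 238 to 241 with BX795 (1 of 7 tested rose and 4 fell), and their part was not tested. The liver factor CREB3L3, which acts on lipid and acute phase genes, was at 24.6, 39.7 and 30.1 CPM with siNC and 14.1, 8.98 and 10.3 with BX795. All BX795 libraries were below all controls, a log2 change of -1.50 ± 0.20 (edgeR adjusted p = 0.00049) and -1.02 after GC correction. CREB3L2 was not called (0.05).

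XBP1 was at 155, 190 and 186 CPM with siNC and 122, 113 and 108 with BX795, without overlap. Its log2 change was -0.63 ± 0.10 (edgeR adjusted p = 0.00118) and -0.96 after GC correction. The sensors ATF6 (0.53 ± 0.10) and ERN1 (0.33 ± 0.09) rose, to 0.20 and 0.38 after GC correction, and ERN1 lost its call without BX795 replicate 2 (edgeR adjusted p = 0.0572).

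CALR was at 822, 1060 and 987 CPM with siNC and 407, 390 and 380 with BX795. The BX795 libraries did not overlap with the controls, at a log2 change of -1.29 ± 0.10 (2.44-fold lower, edgeR adjusted p = 2.60e-05) and -1.08 after GC correction. Its membrane-bound relative CANX was not called (-0.04) until GC correction (-0.36). HSPA5 was at 478, 490 and 488 CPM with siNC and 259, 272 and 267 with BX795, again without overlap, a log2 change of -0.87 ± 0.07 (1.82-fold lower, edgeR adjusted p = 2.73e-05) and -1.03 after correction. HSP90B1 was at 568, 542 and 530 CPM against 310, 327 and 306. That fall, without overlap, was -0.80 ± 0.08, and -1.13 after correction.

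SDF2L1 was at 13.7, 23.5 and 25.7 CPM with siNC and 7.62, 4.98 and 5.91 with BX795. The lowest control was still above the highest BX795 library, a log2 change of -1.76 ± 0.27, but its transcript is 65.5% GC and the change was -0.89 after GC correction. CRELD2 was at 35.5, 53 and 52.8 CPM against 20.4, 15.9 and 17.1, also without overlap, with -1.40 ± 0.20 before and -1.16 after correction. For both genes the first control library, which had the lowest GC trend of the controls, was closest to the BX795 libraries. HYOU1 fell by 1.03 ± 0.09 and MANF by 0.68 ± 0.13. DNAJB11 fell by 0.43 ± 0.11, a call lost without control replicate 3 or BX795 replicate 3 (edgeR adjusted p = 0.059 and 0.0509). DNAJB9 and DNAJC3 were not called (0.09 and 0.14), and turned to -0.26 and -0.23, both called, after GC correction.

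PDIA4 was at 206, 262 and 222 CPM with siNC and 102, 110 and 110 with BX795. These did not overlap, and the log2 change was -1.10 ± 0.10 (2.14-fold lower, edgeR adjusted p = 5.08e-05). PDIA5 (-0.84 ± 0.11), PDIA3 (-0.81 ± 0.08), P4HB (-0.73 ± 0.11) and TXNDC5 (-0.47 ± 0.08) fell too, and PDIA6 and ERO1B were not called (-0.14 and -0.20). After GC correction P4HB was at -0.30 and ERO1B at -0.67. ERO1A was called higher (0.36 ± 0.12), but was at -0.05 after GC correction and lost its call without control replicate 2 or BX795 replicates 2 or 3 (edgeR adjusted p = 0.0805, 0.123 and 0.0767).

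Degradation genes were divided, with 4 of 7 tested called higher and 2 lower. DERL2 (0.56 ± 0.15), DERL1 (0.53 ± 0.11), SEL1L (0.42 ± 0.13) and HERPUD1 (0.38 ± 0.10) were higher, and OS9 (-0.48 ± 0.10) and SYVN1 (-0.28 ± 0.08) lower. Several of these calls were lost when 1 library was left out, and several values changed with GC correction. SEL1L was at 0.03 after GC correction and lost its call without control replicate 2 or 3 or BX795 replicate 2 or 3 (edgeR adjusted p = 0.0788, 0.0791, 0.101 and 0.0724). DERL2 was at 0.19 after correction and lost it without BX795 replicate 2 (0.052), and SYVN1 turned to 0.03 and lost it without BX795 replicate 2 or 3 (0.0618 and 0.06). DERL1 and HERPUD1 remained called after GC correction at 0.26 and 0.30. EDEM1 (-0.07), SEC61A1 (-0.14) and SEC61B (0.13) were not called.

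**Figure D3:**
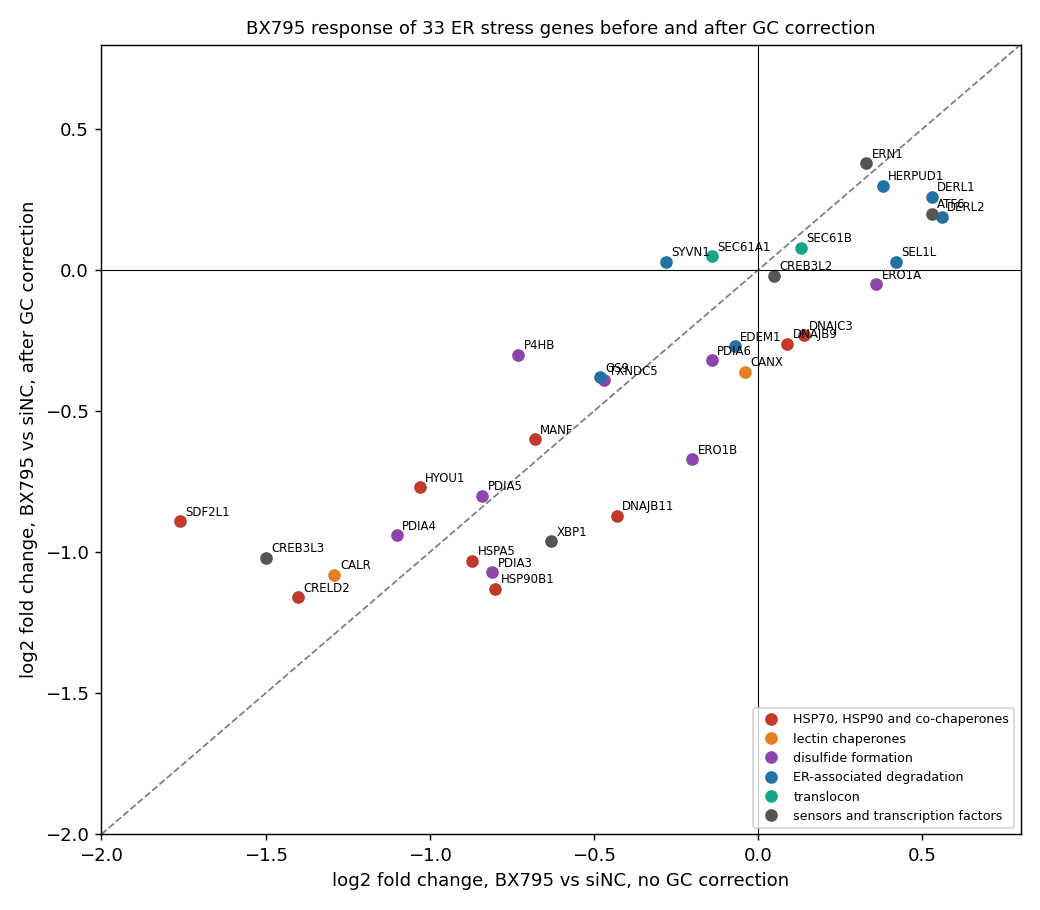
Log2 fold change of 33 members with BX795 against siNC before (horizontal) and after (vertical) correction for gene GC content; points are coloured by role, the dashed line marks equality, and CREB3L1 (-4.26 and -3.68) is outside the plotted range. HSPA5, HSP90B1, HYOU1, CALR and PDIA4 lie below 0 on both axes, while SEL1L and ERO1A lie near 0 on the vertical axis.

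The 13 of 25 calls that held under each alternative were CALR, CREB3L1, CREB3L3, CRELD2, HSP90B1, HSPA5, HYOU1, MANF, P4HB, PDIA3, PDIA4, PDIA5 and TXNDC5, each lower with BX795. Of the members called with siADAR and with BX795, which share no control libraries, 18 were called in both (of 24 and of 25). Among them 11 (61.1%) moved in opposite directions, against 2228 of the 4249 genes called in both over the whole table (52.4%). These members were CALR, CREB3L1, DNAJB11, HERPUD1, HSP90B1, HSPA5, HYOU1, MANF, PDIA4, SDF2L1 and TXNDC5. Of the 11, 10 were higher with siADAR and lower with BX795 (55.6% of the 18, against 29.5% over the whole table). HERPUD1 went the reverse way. Another 5 were higher in both and 2 lower in both. After GC correction 15 of 20 members called in both (75%) moved in opposite directions, against 55.4% over the whole table.

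IFNa gave fewer calls. With IFNa 7 of 34 members fell and 2 rose, with a median of -0.07 against -0.02 over all genes, where 10.9% of all tested genes were called lower and 11.9% higher. Without a filter on low counts, 69.1% of called genes were higher in place of 52.2%, and the median of all genes moved by 0.14. SDF2L1 was at 7.3 and 11.1 CPM with IFNa, below the control values given above, a log2 change of -1.18 ± 0.30 (edgeR adjusted p = 0.0225) and -0.56 after GC correction. CRELD2 was at 21.5 and 27.6 CPM, also below all controls, with -0.94 ± 0.22 before and -0.78 after correction. CREB3L3 was at 17.5 and 22.3 CPM, with -0.66 ± 0.22 and, no longer called, -0.32 after correction.

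P4HB was at 978, 1332 and 1131 CPM with siNC and 765 and 824 with IFNa, and fell by 0.53 ± 0.12. DERL1 was at 46.9, 40.2 and 40.4 CPM against 69 and 61.1, and rose by 0.61 ± 0.13. Neither gene's groups overlapped. HYOU1 (-0.50), XBP1 (-0.43) and TXNDC5 (-0.41) were also called lower and DERL2 (0.51) higher. The major chaperones HSPA5 (537 and 569 CPM, log2 0.19 ± 0.08) and HSP90B1 (612 and 630 CPM, 0.18 ± 0.09) lay above every control library but were not called (edgeR adjusted p = 0.102 and 0.145) and were at 0.06 and -0.09 after GC correction, and PDIA4 was not called (208 and 226 CPM, -0.08 ± 0.11). None of the 9 calls held under each alternative. Without control replicates 2 and 3, which leaves 1 control, fewer members were called in each direction, as were fewer genes over the whole table. Where 1 IFNa library is left out, the lone one is assumed to vary like the other groups. All 9 were lost without IFNa replicate 1, where far fewer genes were called over the whole table too. SDF2L1, CRELD2, XBP1, DERL2 and CREB3L3 were also lost without control replicate 2 (0.0751, 0.0619, 0.0723, 0.0984 and 0.165) or 3 (0.079, 0.063, 0.0774, 0.081 and 0.1), and DERL2 and CREB3L3 without IFNa replicate 2 (0.0809 and 0.0648). Comparisons of IFNa, BX795 and the combined treatment with siNC share the same 3 control libraries.

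When BX795 was combined with the ADAR siRNA, 5 of 9 HSP70, HSP90 and co-chaperone genes were lower than with siNC. So were 5 of 8 disulfide genes and CALR. DNAJC3 was called higher (0.41 ± 0.11, and 0.06, not called, after GC correction), ERO1A was higher (0.67, and 0.28 after correction), and CANX was not called (0.03) until GC correction (-0.28). In all 15 of 34 members fell and 7 rose, with a median of -0.21 against -0.03 over all genes, where 16% of all tested genes were called lower and 16.9% higher. Without a filter on low counts, 63.9% of called genes were higher in place of 51.3%, and the median of all genes moved by 0.14. Without control replicates 2 and 3, fewer members were called in each direction, as were fewer genes over the whole table. CREB3L1 was at 0.422 and 0.565 CPM (-3.36 ± 0.33) and CREB3L3 at 5.72 and 5.89 CPM (-2.43 ± 0.24, 5.39-fold lower). CALR was at 427 and 397 CPM (-1.22 ± 0.12). Each of these libraries was below each siNC library.

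HSPA5 was at 320 and 310 CPM (-0.62 ± 0.08), HSP90B1 at 335 and 379 CPM (-0.61 ± 0.09) and XBP1 at 112 and 113 CPM (-0.66 ± 0.11), all below the controls. ATF6 rose by 0.78 ± 0.11 and was at 0.47 after GC correction. SDF2L1, at 9.98 and 6.52 CPM (-1.34 ± 0.31), and CRELD2, at 25.9 and 17 CPM (-1.13 ± 0.22), lay below the controls, and their calls were lost without replicate 2 of the combined treatment, where the lone library left is again assumed to vary like the other groups (edgeR adjusted p = 0.105 and 0.057). So were those of DNAJC3, TXNDC5, ERO1A, SEL1L, DERL2, OS9 and ERN1 (0.0576 to 0.311). PDIA4, at 163 and 175 CPM (-0.45 ± 0.11), lost its call without either library (0.0775 and 0.0628). OS9 also lost its call without control replicate 2 or 3 or replicate 1 of the combined treatment (0.154, 0.134 and 0.0742). The 11 of 22 calls that held under each alternative were ATF6, CALR, CREB3L1, CREB3L3, HSP90B1, HSPA5, HYOU1, P4HB, PDIA3, PDIA5 and XBP1.

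**Figure D4:**
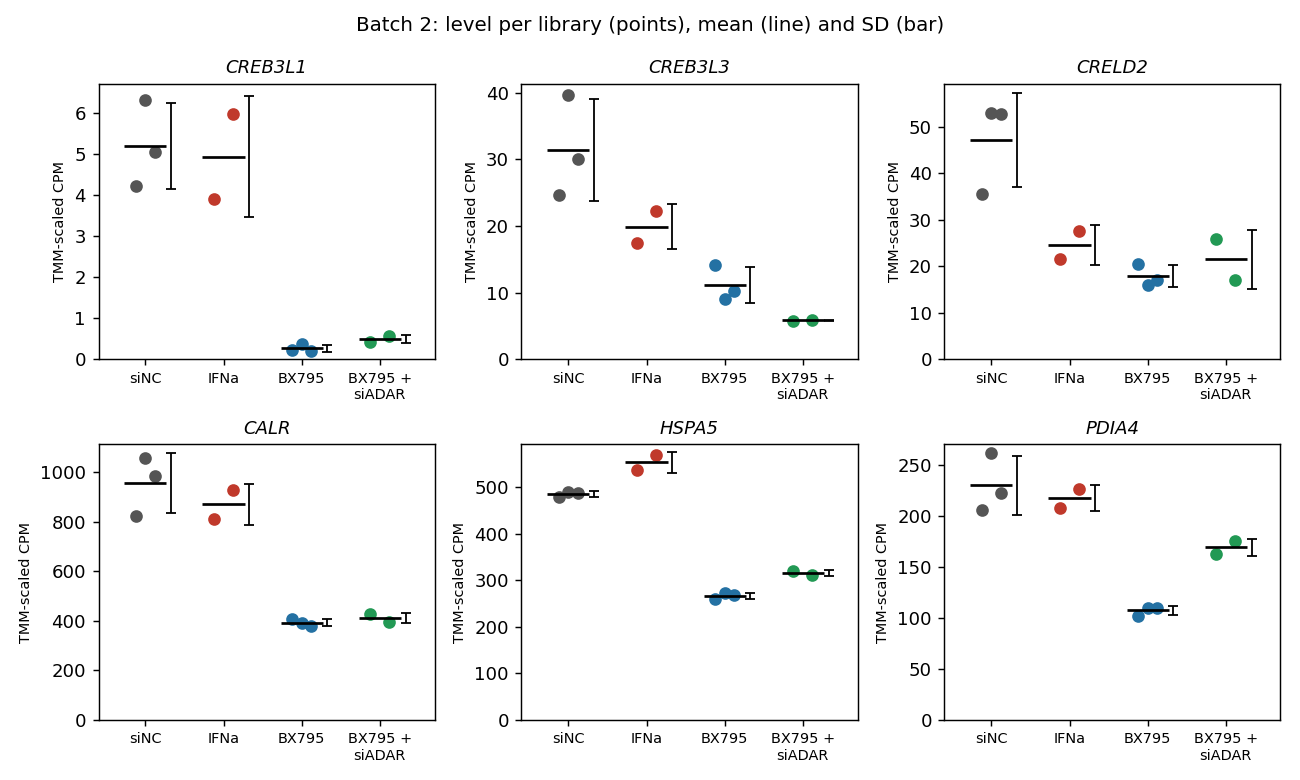
CPM per library (points) with mean (line) and SD (bar) for 6 members in the 4 groups of batch 2 (3, 2, 3 and 2 libraries). CREB3L1, CREB3L3, CRELD2, CALR and HSPA5 are low in both BX795 groups, and PDIA4 is higher with the ADAR siRNA than with BX795 alone.

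Relative to BX795 alone, PDIA4 was higher with BX795 and the ADAR siRNA, and no other member was called by edgeR. Since cells given BX795 alone may have had no control siRNA, transfection cannot be told apart here from the ADAR siRNA. In this comparison 1.49% of all tested genes were called higher and 2.17% lower. At an unadjusted p below 0.05, 9 members were higher and 1 lower, and DESeq2 called 2 higher and 1 lower. With GC correction 6 were called higher, HSPA5, DNAJC3, PDIA4, ERO1A, SEL1L and ATF6 (0.26 to 0.60), and CREB3L3 lower (-1.02). The median of the members was 0.16 against 0.01 over all genes. PDIA4 was at 102, 110 and 110 CPM with BX795 and 163 and 175 with both, without overlap, a log2 change of 0.65 ± 0.11 (1.57-fold, edgeR adjusted p = 0.00708). That call was lost without replicate 1 or 2 of the combined treatment (0.0515 and 0.0677). All 9 HSP70, HSP90 and co-chaperone genes had positive values, from 0.18 to 0.42, below the threshold of the test (4 at an unadjusted p below 0.05). CREB3L1 (0.90 ± 0.41) and CREB3L3 (-0.93 ± 0.24, edgeR adjusted p = 0.0565) were not called. Without a filter on low counts 51.7% of called genes were higher in place of 40.6%.

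The response to the ADAR siRNA with BX795 was compared with that without it in 1 fit of all 19 libraries. PDIA4 responded by 0.77 ± 0.04 without and 0.65 ± 0.11 with BX795, a difference of -0.10 ± 0.11 in the joint fit. HSPA5 and HSP90B1 differed by 0.01 ± 0.07 and -0.07 ± 0.10. Only CREB3L3 was called among the 34, with a difference of -0.92 ± 0.25 (edgeR adjusted p = 0.0486). The share of all tested genes called in this contrast is not given, so that count has no background beside it. This contrast crosses the batches, so a batch effect on the response cannot be told apart from BX795. If cells given BX795 alone had no control siRNA, transfection also differs within its BX795 part.

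Members with an ERSE or ERSE-II in a promoter window, such as the HSPA5, CALR and HYOU1 stretches shown, were set beside those without. With siADARB1 the 11 holders had a median log2 change of 0.26 (7 higher, 1 lower) and the 21 others 0.06 (5 higher, 1 lower). Over all tested genes 8.25% were called higher and 8.45% lower there. With siADAR the medians were 0.15 (7 higher, 2 lower) and 0.16 (12 higher, 2 lower), beside 20.2% and 17.6% of all tested genes. With BX795 they were -0.80 (1 higher, 7 lower) and -0.14 (5 higher, 10 lower), beside 20.2% and 21.9%. After GC correction the BX795 medians were -0.89 (1 higher, 10 lower) and -0.26 (2 higher, 12 lower), beside 14.3% and 16.1%. PDIA4, with the largest rise among the members in the siADARB1 comparison, was among those without a match, and HERPUD1, which holds ERSE-II, was higher with BX795. These values describe the members and were not tested as groups.

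Other genes of the pathway were counted from lists set by function. The shares of all tested genes called higher and lower, to be read beside these counts, were 20.2% and 17.6% with siADAR, 8.25% and 8.45% with siADARB1, and 20.2% and 21.9% with BX795 (14.3% and 16.1% after GC correction). Those shares were 11.9% and 10.9% with IFNa and 16.9% and 16% with the combined treatment against siNC. Among 6 genes that process ER transcription factors or are related to them, 3 rose with siADAR and 1 with siADARB1. MBTPS1, the site-1 protease that cuts ATF6 and the CREB3L factors, rose by 0.62 ± 0.04 with siADAR, 0.66 ± 0.04 with siADARB1, and 0.46 ± 0.08 with the combined treatment relative to BX795. With BX795 alone it was not among the calls of this list, which were 2 falls, WFS1 (-0.79 ± 0.13) and ATF6B (-0.32 ± 0.10, 0.07 after GC correction).

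Of 18 genes for protein entry and N-glycosylation 12 rose with siADAR, led by the signal peptidase subunit SPCS3 (0.57 ± 0.04), and 4 rose and 1 fell with siADARB1. With BX795 5 rose and 4 fell, and after GC correction 2 rose and 5 fell. Of 13 tested other ER folding factors 7 rose and 1 fell with siADAR, among them the reductase DNAJC10 (0.36 ± 0.04) and, falling, the glycoprotein folding sensor UGGT1 (-0.22 ± 0.04). In that list 1 rose with siADARB1, and with BX795 3 rose and 5 fell, including the prolyl isomerase PPIB (-0.63 ± 0.11). After GC correction 0 of the folding factors were higher by edgeR (1 at an unadjusted p below 0.05) and 7 were lower.

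Of 15 other degradation genes 5 rose and 2 fell with siADAR and 1 rose and 1 fell with siADARB1. The fall with siADARB1 was that of UBE2J1, an ER-anchored ubiquitin-conjugating enzyme, with a log2 change of -1.22 ± 0.05 (edgeR adjusted p = 3.28e-09). With BX795 5 rose and 4 fell, and 3 rose and 2 fell after GC correction. The PERK branch and ATF4 targets, the amino acid and redox arm of the stress response, gave 6 of 14 higher and 4 lower with siADAR. They included ATF3 (0.67 ± 0.07) and the amino acid transporter subunit SLC3A2 (0.46 ± 0.04) among the rises and the serine synthesis enzyme PSAT1 (-0.39 ± 0.04) among the falls. With siADARB1 5 rose and 1 fell, with ATF4 at 0.23 ± 0.04. With BX795 3 rose and 3 fell, but 1 rose and 0 fell by edgeR after GC correction (2 and 2 at an unadjusted p below 0.05), where the transporter SLC7A11 went from 0.85 to 0.33 and the pseudokinase TRIB3 from -0.76 to -0.18, neither still called.

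Of 12 cytosolic and mitochondrial chaperones 6 rose with siADAR, led by HSPB1 (0.61 ± 0.05), and 2 rose and 1 fell with siADARB1. With BX795 4 fell, among them HSPB1 (-1.20 ± 0.19, and -0.44 after GC correction). IFNa gave 3 rises in this list (2 after GC correction), 2 rises for other degradation (3 and 1 fall after correction), 1 rise for factor processing (0 by edgeR after it, also at an unadjusted p below 0.05), and 1 fall for the PERK branch (1 rise and 1 fall after it). For protein entry the balance turned, from 6 rises and 2 falls with IFNa to 3 rises and 4 falls after correction, and other folding factors went from 2 rises and 3 falls to 1 and 6. With the combined treatment against BX795, 2 cytosolic chaperones and MBTPS1 were the calls in these 6 lists. Against siNC the combined treatment gave 5 rises and 1 fall for the PERK branch, 3 and 5 for other folding factors, 7 and 2 for other degradation, 2 and 2 for factor processing, and 4 and 2 for cytosolic chaperones. After GC correction these were 5 and 1, 2 and 3, 7 and 3, 2 and 1, and 3 and 1. For protein entry the balance turned here too, from 8 rises and 2 falls to 3 and 4.

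Copies and neighbours of the members took few counts. The processed copy PDIA3P1 held 0.997% as many counts as PDIA3, and HSPA5P1, XBP1P1 and the read-through BLOC1S5-TXNDC5 held under that share of their partners. The divergent transcript DNAJC3-DT held 4.57% as many counts as DNAJC3, and how the authors' counting divided reads between them is not given, so small changes of DNAJC3 are uncertain.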

How the data were processed

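Total RNA from 19 HepaRG libraries was depleted of ribosomal RNA and sequenced in pairs on a directional protocol, per the labels' protocols. The deposited table holds expected counts per gene, made by the authors with STAR and Salmon on GRCh38.p14 per the submitters' processing notes; no label, header or note used here gives their settings or annotation release. Members and lists were chosen with earlier results of these data known. The expected counts were rounded, since 94.82% were whole within 0.005. Each batch was fitted alone with edgeR 4.0.16 (R 4.3.3): TMM scaling, filterByExpr (21747 and 20718 genes kept), quasi-likelihood tests, 1 mean per group, and Benjamini-Hochberg adjustment over all tested genes, with a call at an adjusted p below 0.05. The SE of a log2 fold change was taken from the quasi-likelihood statistic. The script was tested on simulated counts. Values in each library are given for up to 5 called members with the largest change per comparison, and at least once for HSPA5, HSP90B1, XBP1 and PDIA4; from other lists up to 3 called genes with the smallest p are named. Alternatives were DESeq2 size factors, no count filter, a replicate block, a per-library trend on gene GC content (lowess span 0.3) as an offset, both together, 1 fit of all libraries, the compared groups alone, DESeq2 1.42.0, and leaving out each library. Gene lengths and GC content came from GENCODE transcripts, and promoter windows from RefSeq. A planned count of ER retention signals at protein ends was not run.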

Additional observations from a re-analysis of the deposited data

Results flagged for a closer look

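CREB3L3 was flagged because its response to the ADAR siRNA differed with and without BX795. The difference was -0.92 ± 0.25 on the log2 scale (edgeR quasi-likelihood interaction over all 19 libraries, adjusted p = 0.0486). No share of all tested genes called in this contrast is given beside it. Without BX795 the siADAR and siNC libraries of batch 1 overlapped, at 24.6, 28.3 and 28.1 CPM against 25.1, 28.8 and 25.8. With BX795 the combined libraries were at 5.72 and 5.89 CPM, below the 14.1, 8.98 and 10.3 CPM of BX795 alone. The difference was -1.01 after GC correction (adjusted p = 0.00183). It crosses the batches, and summed hepatocyte markers were also lower with the combined treatment (9922 to 12438 CPM) than with BX795 alone (15530 to 16689 CPM); their part in the result was not tested.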

How the results depend on the processing

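Counts of called members moved most for IFNa and for the combined treatment relative to BX795. In 1 fit of all 19 libraries the counts higher and lower were 9 and 1 for siADAR, 7 and 1 for siADARB1, and 4 and 5 for siADAR against siADARB1. Over the 23121 genes of that fit they were 2539 and 2503, 485 and 581, and 2288 and 2230. The count higher was 9 for IFNa and 7 for the combined treatment relative to BX795, beside 4250 and 1170 over all genes. For siADARB1, 1 was lower without a count filter, with the replicate block, with the compared groups alone and by DESeq2. For IFNa the count higher was 8 without a count filter, 0 with the replicate block and 1 with the replicate block and GC correction. It was 1 with the compared groups alone and 5 by DESeq2. The count lower was 4 without a filter, 0 with the block and 3 with the groups alone. Both counts were smaller without control replicates 2 and 3, where 1 control is left. For BX795, 4 were higher with GC correction and 3 with the replicate block and GC correction. Fewer were also called higher without control replicates 2 and 3, for BX795 and for the combined treatment. For the combined treatment relative to BX795 the count higher was 6 with GC correction, 3 with the block and GC correction and 2 by DESeq2, and the count lower was 1 without a filter, with GC correction with and without the block, in the fit of all libraries, with the groups alone and by DESeq2. The cause of these moves was not tested.

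With each library left out in turn, the ranges higher and lower were 18 to 20 and 3 to 4 for siADAR, 12 to 15 and 1 to 2 for siADARB1, 5 to 8 and 9 to 12 for siADAR against siADARB1, 0 to 6 and 0 to 9 for IFNa, 3 to 7 and 16 to 18 for BX795, 2 to 9 and 10 to 15 for the combined treatment, and 0 to 1 and 0 for the combined treatment relative to BX795. Some members called before or after GC correction turned sign with it, with values given without and with the replicate block. For BX795 they were DNAJB9 (-0.26 and -0.26), DNAJC3 (-0.23 and -0.23), ERO1A (-0.05 and -0.05) and SYVN1 (0.03 and 0.04). For the combined treatment it was CANX (-0.28 and -0.29). For IFNa they were DNAJC3 (-0.30 and -0.28) and, without the block, CANX (-0.21). Sign turns of members called neither before nor after, such as HSP90B1 with IFNa, are not listed. Deviations of same-numbered libraries correlated between -0.218 and 0.267. Differently numbered libraries were not compared, so these values cannot settle whether replicate numbers pair the samples. The block lost the 9 IFNa calls, EDEM1 with siADAR, ERN1 with siADARB1, ATF6 between knockdowns, ERO1A and SEL1L with BX795, and DNAJC3 and OS9 with the combined treatment. Batch 2 has about 13081000 to 34720000 counts per library, 2 libraries in 2 of its groups and a biological coefficient of variation of 14.2% against 6.68% in batch 1; how much each limits its precision was not tested.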
